A study of Drosophila melanogaster with 24 samples.

Results

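The heads of male w1118 flies kept on a high-fat diet (HFD) were compared with the heads of male w1118 flies kept on a regular diet (RD), in 6 of the 24 RNA-seq libraries of the study. The libraries carry the replicate numbers 2, 3 and 4 on HFD and 1, 2 and 3 on RD, so that each diet has 3. HFD was the regular food with 20% coconut oil added. By the labels the flies were 5 to 7 days old and each library was a pool of 100 heads, and by the study's methods the flies spent a week on their food and the heads were broken off by vortexing on liquid nitrogen and passed through a sieve that held back the bodies. The w1118 strain carries a mutation of the white gene, which removes the eye pigment, and all 24 libraries share it, so that no other genotype was compared. The labels call the libraries biological replicates, and nothing else in the sources used here says that they came from separate cultures, so the p-values measure the spread between these pools. All genes of the count table were examined, and the remaining 18 libraries (female heads, and bodies of both sexes) were used only where stated.

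The head of an adult fly holds the brain, the compound eyes, the antennae and mouthparts, and a layer of fat body around the brain. The fat body does the work of liver and adipose tissue. It stores triglycerides and glycogen, makes storage and immune proteins, breaks down amino acids, and sends peptides to the brain that report the state of nutrition. The eyes dominate the RNA of a head, and the antennae contribute odorant-binding proteins in very large amounts from few cells. In pooled heads, fewer cells of a type and less RNA per cell cannot be told apart.

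The libraries did not group by diet. HFD 2 correlated more closely with RD 1 (Pearson's r = 0.991 across the log2 levels of the genes tested) than with HFD 4 (0.956) or HFD 3 (0.885). The first principal component held 78.9% of the variance and placed HFD 2 at -42.5, HFD 3 at 92.2 and HFD 4 at 21.5, against -58.4 in RD 1, 1.36 in RD 2 and -14.1 in RD 3. HFD 3 lay at the far end of it. Levels below are CPM, the counts of a gene scaled to a common library total with factors from the trimmed mean of M values (TMM). The 92 cytoplasmic ribosomal protein genes summed to 41512, 17343 and 21332 CPM in HFD 2, 3 and 4, against 54314, 23586 and 26058 CPM in RD 1, 2 and 3. The 14 neuron markers ran the other way, at 7878, 20660 and 11812 CPM on HFD and 6758, 10039 and 9093 CPM on RD. The ribosomal RNA pseudogenes, which a poly(A) selection should largely remove, summed to 35994, 86653 and 55051 CPM on HFD and 33256, 47517 and 39039 CPM on RD. In HFD 3 the fifth of genes with the longest transcripts lay 0.42 above its mean over the 6 libraries on the log2 scale (median over 2034 genes). HFD 2 and RD 1 therefore stood at one end of a shared gradient of ribosomal protein RNA and HFD 3 at the other. Many of the gene groups below are therefore also given without HFD 2. Those fits keep RD 1, at the opposite end of the gradient from HFD 3, so they can widen differences that lie along it. They describe HFD 3 and HFD 4 against RD and are no further support for a difference between diets. With the summed ribosomal protein level as a covariate of the test, a choice made after seeing the data, 0 genes had an adjusted p under 0.05 and 205 an unadjusted p under 0.05.

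**Figure D1:**
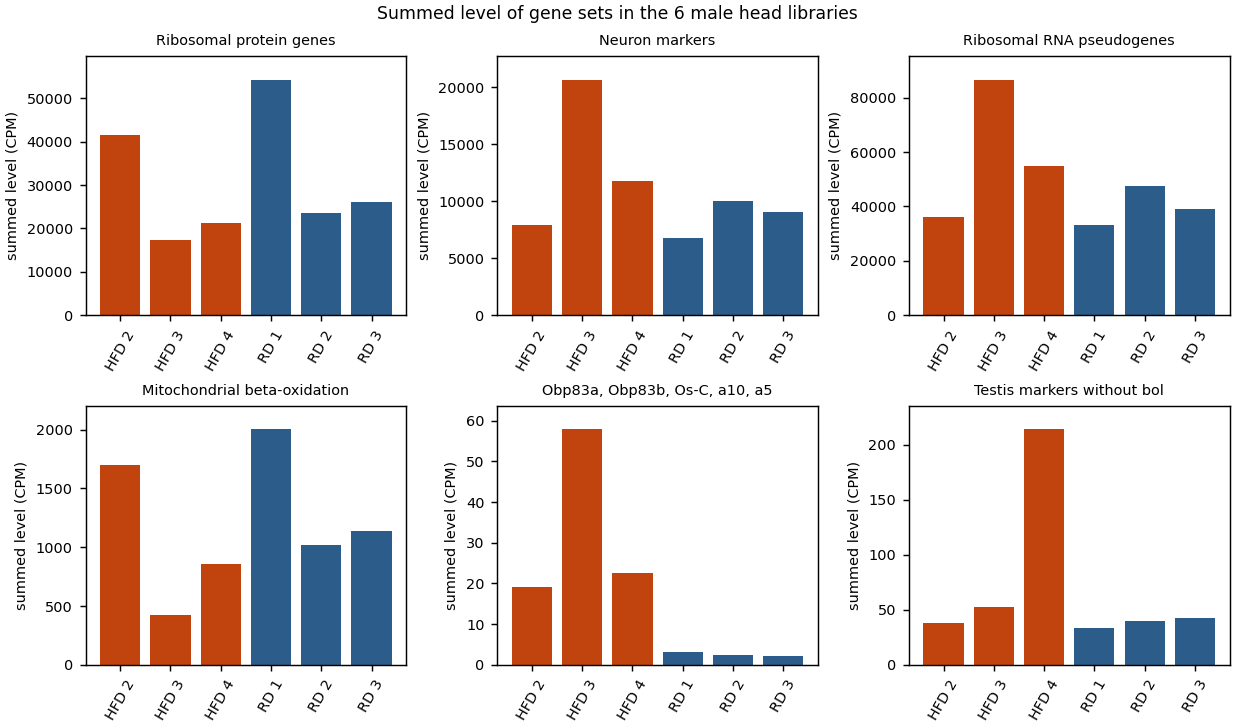
Summed CPM of 6 gene sets in each male head library, with the 3 HFD libraries left of the 3 RD libraries; each bar is 1 library. HFD 2 and RD 1 share the highest ribosomal protein sums, HFD 3 has the highest neuron and ribosomal RNA pseudogene sums, all 3 HFD libraries exceed all RD libraries in the 5 antennal genes, and HFD 4 alone has a high testis sum (214 CPM).

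The head markers fitted the label. The 21 photoreceptor genes summed to 87858, 66044 and 63772 CPM on HFD and 75589, 72354 and 68976 CPM on RD, and the rhodopsin gene ninaE was the gene with the most counts in HFD 2 and RD 1. In the other libraries it was the 18S ribosomal RNA pseudogene CR41602. Arrestin genes (Arr2 and Arr1), a non-coding gene (CR42862) and, in HFD 3, the synaptic gene cpx completed the top 5 of the HFD libraries. The lists of glia, flight muscle and Malpighian tubule markers had medians of the log2 fold change of -0.04, -0.03 and -0.07, though single members varied between libraries. The tubule marker Uro, named after its values were seen, had at most 2 reads in a library, so the tubule median came from other genes. Total counts were 20.1, 14.1 and 14.4 M (mega) in HFD 2, 3 and 4, against 15.6, 16.2 and 18.2 M in RD 1, 2 and 3, and 3 counts, the floor used for a gene at 0, stand for 0.145 to 0.267 CPM in a library.

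No gene passed the adjusted threshold when the diets were compared. Of 16727 genes in the table, 15048 had a read in a male head library and 10175 passed the filter on low counts and were tested. The edgeR quasi-likelihood test gave an adjusted p under 0.05 to 0 of them (0%), the smallest Benjamini-Hochberg adjusted p was 0.809, and DESeq2 called 9 genes (0.0885%). An unadjusted p under 0.05 fell to 48 genes that were higher on HFD (0.472%) and 96 that were lower (0.943%). Without overlap between diets, 281 genes (2.76%) stood higher in each HFD library than in any RD library and 415 (4.08%) stood lower. The median log2 fold change over all genes tested was -0.02, and 159 genes lay above 1 and 146 below -1. The count of 144 genes at an unadjusted p under 0.05 became 2296 when HFD 2 was left out, 141 for HFD 3 and 50 for HFD 4, and 56, 75 and 93 when RD 1, RD 2 or RD 3 was. Without HFD 2 the share of genes at that level was 12.5% higher and 9.71% lower of 10345 tested, again with 0 below the adjusted threshold in edgeR (smallest adjusted p 0.224), while DESeq2 then called 166 genes, of which 42 were higher and 124 lower. Scaling by total counts only moved the median of all genes to -0.16, and a fit of all 12 male libraries moved it to 0.19, so that a list whose median lies within that range of 0 is given no direction. Both fits, with and without HFD 2, shared 45 genes higher and 79 lower at the unadjusted level. Each gene below is therefore described by its values, and an unadjusted p is given as a rank and not as a call.

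**Figure D2:**
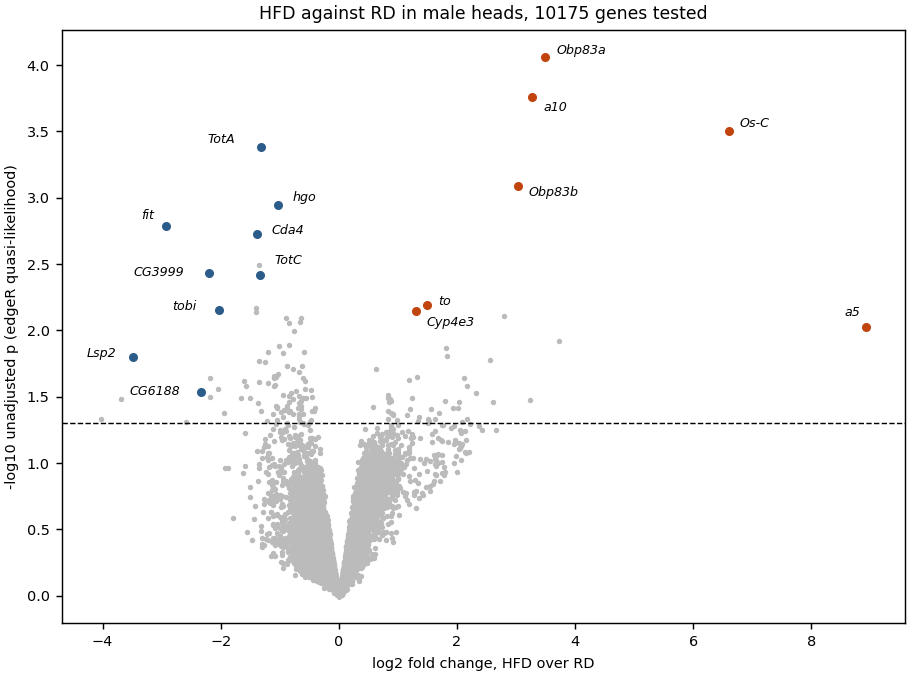
Each point is 1 of the 10175 genes tested in male heads, placed by its log2 fold change (HFD over RD) and by how small its unadjusted p from edgeR is (negative log10), with the dashed line at the unadjusted threshold. Labelled genes include the antennal genes at the upper right and TotA, hgo, fit and CG3999 at the upper left and none passes the adjusted threshold. The fitted fold change of a5, which has no read in RD, depends on the prior count.

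The genes that break down tyrosine and phenylalanine were lower on HFD, and among the metabolic lists theirs had the largest share of members without overlap between diets. The pathway turns phenylalanine into tyrosine and then, step by step, into fumarate and acetoacetate, and in flies it is active in the fat body. All 7 genes of the list were tested, 6 lay below 0, and those 6 had every HFD library below every RD library, against 4.08% of all genes. Their summed level was 700, 451 and 622 CPM in HFD 2, 3 and 4, against 1095, 876 and 1032 CPM in RD 1, 2 and 3. The sums did not overlap between diets. The median log2 fold change of the list was -0.63, and it kept its sign over every alternative, between -0.78 and -0.37.

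hgo (homogentisate 1,2-dioxygenase, FBgn0040211, 2L from 11136393 to 11138565, plus strand) opens the aromatic ring. It had 26.7, 28.8 and 27.4 CPM in HFD 2, 3 and 4, against 46.7, 58.9 and 62.9 CPM in RD 1, 2 and 3. The 3 HFD values lay close together, HFD 2 included, and well below RD. Its log2 fold change was -1.02 (SE 0.19, unadjusted p 0.00113, adjusted p 0.809 by edgeR), and DESeq2 gave an adjusted p of 0.0149. Without HFD 2 it was -1.0 (SE 0.22).

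CG11796 (Hpd in the current annotation, 4-hydroxyphenylpyruvate dioxygenase, 3L from 20438166 to 20439872, minus strand) makes the substrate of hgo. It had 116, 47.2 and 104 CPM on HFD, against 262, 186 and 256 CPM on RD, without overlap, for a log2 fold change of -1.40 (SE 0.37, unadjusted p 0.00721). Its exons overlap those of CtIP and of a non-coding gene on the other strand, so a share of its reads could belong to them if the counting did not use strand. Faa (fumarylacetoacetase, 3L from 4072032 to 4073954, minus strand) takes the last step. It had 46, 45.1 and 54.2 CPM on HFD, against 69.1, 83.3 and 74.4 CPM on RD, for a log2 fold change of -0.64 (SE 0.17, unadjusted p 0.00799). These 3 genes had the smallest p-values of the list and their diets did not overlap.

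The upper steps were lower by less. Hn, the phenylalanine hydroxylase, had 201, 121 and 156 CPM on HFD, against 285, 227 and 212 CPM on RD (log2 fold change -0.60, SE 0.25, unadjusted p 0.051). CG1461, the tyrosine aminotransferase Tat, had 246, 145 and 232 CPM on HFD, against 367, 251 and 349 CPM on RD (-0.63, SE 0.28, unadjusted p 0.0604), with exons that overlap other genes on both strands. Of the maleylacetoacetate isomerases, GstZ2 had 57.1, 52.7 and 41.8 CPM on HFD, against 58.9, 58.4 and 72.1 CPM on RD (-0.32, SE 0.20). GstZ1 was the exception of the list, with 6.81, 11.2 and 6.94 CPM on HFD, against 6.58, 10.9 and 6.02 CPM on RD, and it changed sign with total counts only (-0.10) and when HFD 3 was left out (-0.18). Within each diet the summed level of the pathway had the order of the ribosomal protein sums, and CG11796, Hn and CG1461 were highest in HFD 2 on HFD and in RD 1 on RD. hgo and Faa were not, with RD 1 the lowest RD library in both.

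**Figure D3:**
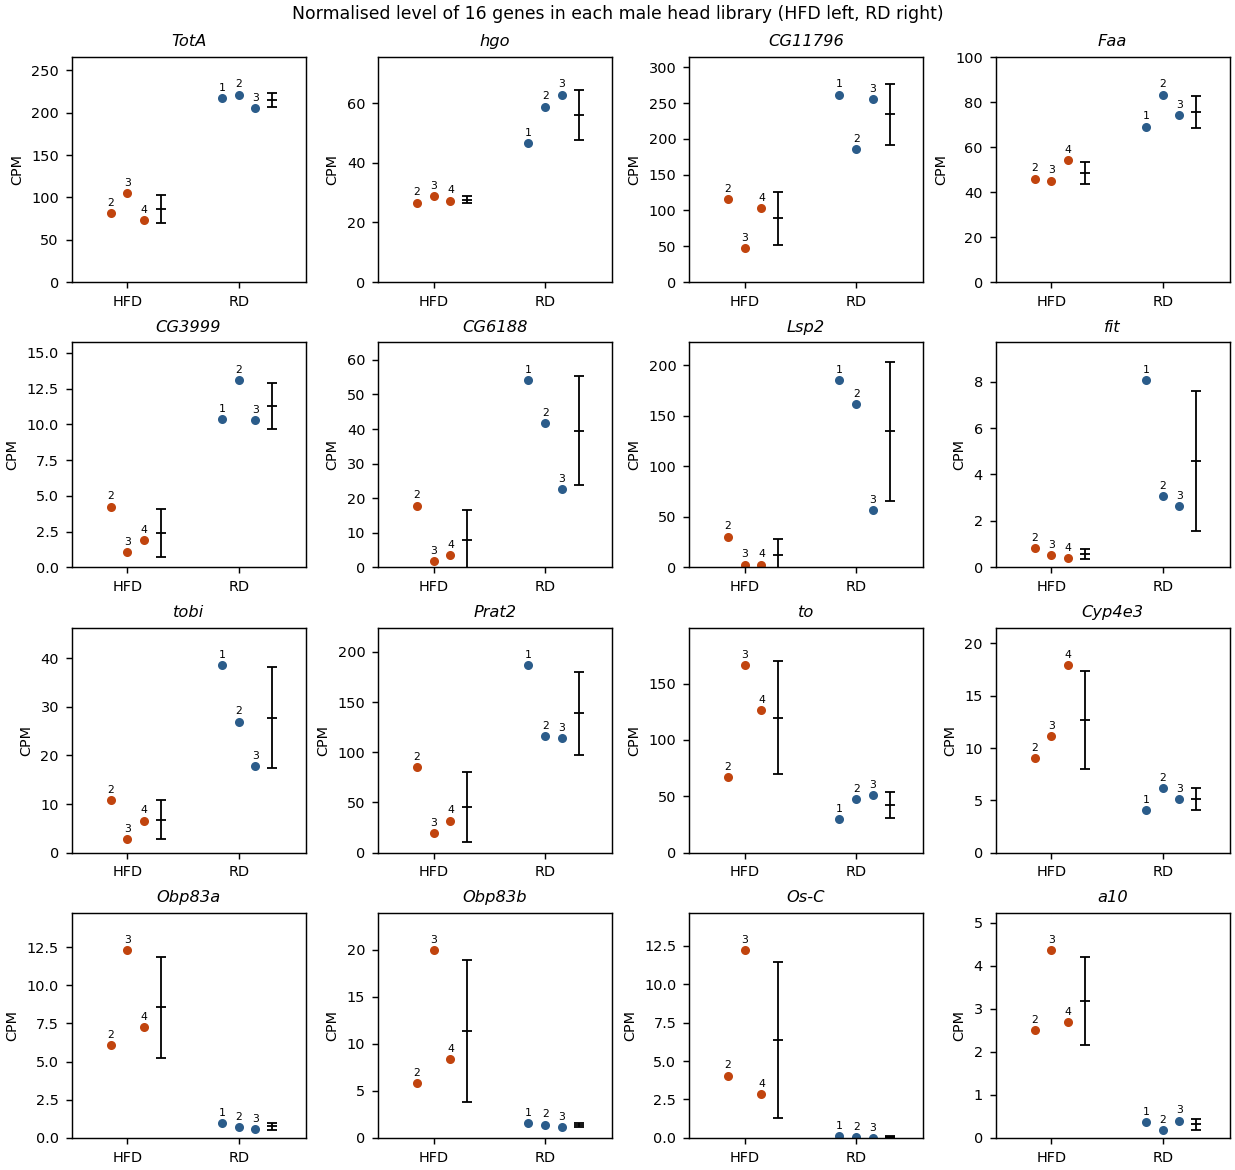
CPM of 16 genes in each male head library, HFD left (red, replicates 2, 3 and 4) and RD right (blue, replicates 1, 2 and 3); each point is a library and the black bars are the mean ± SD of 3, ending at 0 where the SD exceeds the mean. The diets do not overlap in any of the 16, which follows in part from how the genes were chosen. Of all genes tested, 2.76% stood higher and 4.08% lower on HFD without overlap. TotA, hgo and Faa have tight groups, while in CG6188, Lsp2, tobi and Prat2 HFD 2 lies nearer to RD than HFD 3 and HFD 4 do.

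Genes of glycine and methionine metabolism, which feed carbon units into the folate and methylation cycles, were also mostly lower on HFD. Of 14 genes tested, 12 lay below 0, 4 did not overlap between diets and 3 had an unadjusted p under 0.05, all lower, against 4.08% and 0.943% of all genes. The median was -0.92 with all libraries and -1.74 without HFD 2, where 11 of 14 had an unadjusted p under 0.05 in the lower direction, against 9.71% of all genes. Over all alternatives it lay between -1.74 and -0.37. The summed level overlapped between diets, at 799, 601 and 547 CPM on HFD and 1104, 749 and 711 CPM on RD.

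CG3999, annotated as a glycine decarboxylase (3R from 10251518 to 10255268, plus strand), had 4.25, 1.07 and 1.89 CPM on HFD, against 10.4, 13.1 and 10.3 CPM on RD. The highest HFD library (4.25) was far below the lowest RD library (10.3). The log2 fold change was -2.20 (SE 0.50, unadjusted p 0.00367), with a DESeq2 adjusted p of 0.0215, and without HFD 2 it was -2.91 (SE 0.39). CG6188 (Gnmt, glycine N-methyltransferase, which uses up S-adenosylmethionine; 3R from 12674608 to 12676084, plus strand) had 17.9, 1.87 and 3.57 CPM on HFD, against 54.2, 41.7 and 22.7 CPM on RD. HFD 2 lay just below RD 3 and the other HFD libraries lay far lower. The difference on the log2 scale was -2.33 (SE 0.84, unadjusted p 0.0289), and -3.85 (SE 0.52) without HFD 2. CG6385 (Sardh, sarcosine dehydrogenase, the enzyme that acts on the product of Gnmt) had 3.48, 0.267 and 1.35 CPM on HFD, against 12.5, 7.08 and 4.40 CPM on RD (-2.18, SE 0.80, unadjusted p 0.0315). Eip55E, a cystathionine gamma-lyase gene named after its values were seen, was the fourth member without overlap, at 34.0, 11.8 and 24.5 CPM on HFD and 36.9, 34.2 and 35.3 CPM on RD (-0.60, SE 0.37). The other members overlapped between diets. CG6415, the aminomethyltransferase of the glycine cleavage system, had 14.7, 4.36 and 4.58 CPM on HFD, against 28.4, 15.5 and 11.0 CPM on RD. ppl, its lipoyl-bearing protein, had 43.0, 36.3 and 29.8 CPM on HFD, against 67.6, 47.4 and 41.4 CPM on RD. CG10621, a homocysteine S-methyltransferase, had 21.2, 5.78 and 7.55 CPM on HFD, against 41.1, 25.7 and 12.8 CPM on RD. In all 3 of these HFD 2 and RD 1 had the highest level of their diet, as in the ribosomal protein sums. Nmdmc, a mitochondrial folate enzyme among the genes with the smallest p without HFD 2, had 28.3, 8.36 and 10.2 CPM on HFD, against 26.1, 26 and 25.7 CPM on RD, so that HFD 2 lay above RD and HFD 3 and 4 below.

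De novo purine synthesis, a list added after its values were seen, had 9 of 10 genes below 0 and 2 with an unadjusted p under 0.05, both lower, against 0.943% of all genes. Its median was -0.69, and over the alternatives it lay between -1.33 without HFD 2 and -0.24 with the first principal component as a covariate. It was -0.40 without HFD 3 and -0.41 without RD 1. Prat2, which catalyses the committed step of the pathway, had 85.0, 19.6 and 31.9 CPM on HFD, against 187, 116 and 114 CPM on RD, without overlap (-1.61, SE 0.55, unadjusted p 0.0239). ade5 had 119, 49.0 and 55.7 CPM on HFD, against 186, 144 and 111 CPM on RD, with HFD 2 inside the RD range (-0.98, SE 0.39, unadjusted p 0.0415). ade3 had 44.3, 8.27 and 17.8 CPM on HFD, against 78.7, 46 and 44.6 CPM on RD (-1.26, SE 0.60), and ade2 had 46.2, 8.98 and 23.3 CPM on HFD, against 72.9, 44.2 and 42.9 CPM on RD (-1.02, SE 0.57). In each of these genes HFD 2 and RD 1 were again the highest of their diet.

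Larval serum proteins, the hexamerin storage proteins that the fat body secretes, were lower in every HFD library than in any RD library. Lsp2 (3L from 12129393 to 12131869, plus strand) had 30.4, 2.67 and 2.69 CPM on HFD, against 186, 162 and 56.7 CPM on RD. The diets did not overlap, and HFD 3 and 4 lay far below every other library. This gave a log2 fold change of -3.48 (SE 1.08, unadjusted p 0.0158), and -5.65 (SE 0.64, unadjusted p 7.6e-05) without HFD 2. Its exons overlap a non-coding antisense gene. Lsp1beta had 3.91, 0.534 and 0.741 CPM on HFD, against 10.6, 5.43 and 4.81 CPM on RD (-1.95, SE 0.78, unadjusted p 0.0417). The median of the list lay between -4.53 and -1.52 over the alternatives. These 2 were the members of the 4-gene list that passed the filter on low counts.

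The fat body markers mostly lay below 0, but their sum did not separate the diets. It was 2017, 3465 and 1816 CPM on HFD and 3114, 3187 and 2196 CPM on RD. Most of the sum was Rfabg, named after its values were seen, at 1675, 3078 and 1488 CPM on HFD and 2562, 2712 and 1851 CPM on RD. Of 8 markers tested, 7 lay below 0, with a median of -0.41. At an unadjusted p under 0.05, 4 (Lsp2, Lsp1beta, fit and Mtp) were lower and 1 (to) was higher, against 0.943% and 0.472% of all genes. fit, a peptide of the head fat body known for signalling satiety after protein feeding (3R from 21883924 to 21884454, minus strand), had 0.821, 0.534 and 0.404 CPM on HFD, against 8.07, 3.07 and 2.63 CPM on RD. Every HFD library lay below the RD libraries, on 17, 6 and 6 reads, against 130, 52 and 52 reads on RD. On the log2 scale the difference was -2.92 (SE 0.58, unadjusted p 0.00164), with a DESeq2 adjusted p of 0.00598 that was lost when HFD 3 was left out. Its exons overlap genes on both strands. Mtp, the microsomal triglyceride transfer protein that loads lipid onto lipoproteins, had 48.9, 46.3 and 43.7 CPM on HFD, against 63.2, 66.2 and 55.7 CPM on RD (-0.42, SE 0.16, unadjusted p 0.0404).

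The marker that was higher on HFD was to (takeout, 3R from 25240180 to 25241668, plus strand), a secreted carrier-like protein whose loss alters feeding in flies. It had 66.8, 166 and 127 CPM on HFD, against 29.4, 47.4 and 51.0 CPM on RD. The lowest HFD library lay above the highest RD library. The fitted log2 fold change was 1.49 (SE 0.38, unadjusted p 0.00645), and 1.78 (SE 0.29, unadjusted p 0.000607) without HFD 2.

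The Turandot genes, which encode small secreted proteins made by the fat body under heat, infection and other stress, were lower on HFD in all 4 members tested, each without overlap, against 4.08% of all genes. TotA (FBgn0028396, 3R from 20871036 to 20871700, plus strand) had 81.2, 105 and 73.4 CPM on HFD, against 218, 221 and 206 CPM on RD. HFD 2 sat with HFD 3 and HFD 4, and the RD libraries lay close together. The log2 fold change was -1.31 (SE 0.20, unadjusted p 0.000414, adjusted p 0.809 by edgeR), and DESeq2 gave an adjusted p of 0.000284. TotC had 12.6, 13.7 and 14.1 CPM on HFD, against 23.5, 29.8 and 49.3 CPM on RD (-1.34, SE 0.31, unadjusted p 0.0038). TotX had 20.7, 39.4 and 17.7 CPM on HFD, against 42.1, 44 and 40.4 CPM on RD, with a narrow gap between HFD 3 and RD 3 (-0.70, SE 0.32, unadjusted p 0.0693). TotM had 2.37, 1.69 and 1.35 CPM on HFD, against 3.29, 4.49 and 2.48 CPM on RD (-0.91, SE 0.36, unadjusted p 0.0401). The median of the list was -1.11, and between -1.33 and -0.96 over the alternatives. Turandot genes are close in sequence, so how reads were split between them is uncertain. The median was -1.24 with the first principal component as a covariate.

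Immune genes of other kinds overlapped between diets, and a part of them was lower in HFD 3 and 4. Of 10 antimicrobial peptide genes tested, 6 lay below 0 and 0 had an unadjusted p under 0.05 or a separation of the diets. Drsl5, an antifungal peptide gene, had 128, 20.5 and 47.6 CPM on HFD, against 219, 93.3 and 122 CPM on RD. AttB, an attacin gene, had 16.3, 4.80 and 6.53 CPM on HFD, against 15.7, 14.3 and 18.6 CPM on RD. The median of the list, -0.88, was 0.35 without RD 1 and lay above 0 in 9 of 23 alternatives, the 12 male libraries in 1 fit among them. Of 8 peptidoglycan recognition genes 7 lay below 0 (median -0.47), and of 19 heat shock genes 11 did (median -0.03), with 0 at an unadjusted p under 0.05 in either list. Without HFD 2 the antimicrobial median was -1.58 and 4 of 10 genes (AttB, Drs, Drsl4 and Drsl5) were lower at an unadjusted p under 0.05, against 9.71% of all genes, with an unadjusted p of 0.00172 for AttB and 0.0059 for Drsl5. The peptidoglycan recognition median was then -0.71, with 2 of 8 lower (PGRP-SB1 and PGRP-SD). With all other libraries kept it was -0.20 without HFD 3, and it was -0.16 with the first principal component as a covariate.

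Ribosomal protein and beta-oxidation genes had sums in HFD 3 and HFD 4 below those of every RD library and sums in HFD 2 inside the RD range. Of 83 cytoplasmic ribosomal protein genes tested, 75 lay below 0 with a median of -0.58, but 0 had an unadjusted p under 0.05 and the sums overlapped. The median was -1.68 without HFD 2, with 35 of 83 lower at an unadjusted p under 0.05 against 9.71% of all genes, and 0.13 without RD 1, so that a single library on either side set its size and direction. RpL22 had 96.1, 13.8 and 55.7 CPM on HFD, against 376, 66.2 and 71.2 CPM on RD, while RpL38 ran against the others at 423, 1371 and 639 CPM on HFD, against 401, 592 and 463 CPM on RD. The 72 mitochondrial ribosomal protein genes tested, a list added after its values were seen, had 66 members below 0 (median -0.43, and -0.96 without HFD 2). That median was -0.07 without HFD 3 and -0.02 with the first principal component as a covariate. The members without overlap in these lists, RpLP0-like (17.3, 7.83 and 18.9 CPM on HFD, against 23.4, 21.7 and 20.1 CPM on RD), mRpL37 (30.2, 25.4 and 28.0 CPM on HFD, against 31.4, 34.4 and 32.1 CPM on RD) and mRpL41 (12.8 ± 6.24 CPM on HFD, against 18.2 ± 0.610 CPM on RD, SD, n = 3 each), were lower on HFD and were named after their values were seen. They were 1 of 83 cytoplasmic and 2 of 72 mitochondrial genes tested, against 4.08% of all genes, so these lists held no excess of such genes.

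Mitochondrial beta-oxidation, which burns fatty acids, had all 16 genes below 0 and 0 at an unadjusted p under 0.05. The sum was 1702, 420 and 858 CPM on HFD, against 2003, 1017 and 1137 CPM on RD. HFD 2 lay between the RD libraries and HFD 3 and 4 below them. The median was -0.46, it was -1.27 without HFD 2, with 9 of 16 lower at an unadjusted p under 0.05 against 9.71% of all genes, and 0.09 with the first principal component as a covariate. CG3902, an acyl-CoA dehydrogenase, had 133, 27.7 and 42.6 CPM on HFD, against 225, 98.2 and 104 CPM on RD (-1.07, SE 0.64). The 10 peroxisomal fatty acid oxidation genes also all lay below 0 (median -0.32), with 0 at an unadjusted p under 0.05, and their median was 0.08 with that covariate. Glycolysis and sugar storage genes had a median of -0.33 and 17 of 20 below 0, which became 0.03 with it.

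Genes of fatty acid synthesis were lower on HFD in part. Of 13 tested, 9 lay below 0 and 4 did not overlap between diets, all 4 lower, against 4.08% of all genes, and the median was -0.27. Without HFD 2 it was -0.31, with 3 genes higher (Baldspot, CG17374 and CG31523) and 3 lower (ACC, bgm and CG3523) at an unadjusted p under 0.05, against 12.5% and 9.71% of all genes. bgm, a very-long-chain acyl-CoA synthetase, had 40.0, 26.9 and 24.1 CPM on HFD, against 74.5, 43.0 and 45.5 CPM on RD (-0.84, SE 0.31, unadjusted p 0.0314). CG3523, the fatty acid synthase FASN1, had 576, 395 and 409 CPM on HFD, against 1193, 626 and 653 CPM on RD (-0.84, SE 0.33, unadjusted p 0.0412). In both genes the 3 HFD libraries lay below RD, with RD 1 the highest. AcCoAS, which makes acetyl-CoA from acetate, had 556, 504 and 497 CPM on HFD, against 686, 568 and 581 CPM on RD (-0.24, SE 0.20). ATPCL, the ATP citrate lyase, had 350, 230 and 301 CPM on HFD, against 366, 370 and 360 CPM on RD (-0.32, SE 0.22). ACC, which makes malonyl-CoA, overlapped by HFD 2 alone, at 414, 193 and 244 CPM on HFD and 612, 397 and 414 CPM on RD (-0.74, SE 0.35).

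Fat storage and lipase genes had medians of -0.09 (13 tested) and -0.15 (16 tested), and 9 of these 29 genes separated the diets (3 higher and 6 lower, against 2.76% and 4.08% of all genes), of which CG9186, Lip1 and Lip4 were named after their values were seen. Lsd-2, a perilipin of the lipid droplet, had 360, 336 and 322 CPM on HFD, against 315, 288 and 275 CPM on RD, a small difference without overlap (0.21, SE 0.18, unadjusted p 0.285). CG1941, of the diacylglycerol acyltransferase family, had 3.19, 2.31 and 3.23 CPM on HFD, against 4.22, 4.84 and 4.91 CPM on RD (-0.67, SE 0.26, unadjusted p 0.0387). CG9186, a lipid droplet hydrolase gene, had 56.9, 26.3 and 64.6 CPM on HFD, against 65.5, 71.1 and 70.8 CPM on RD (-0.49, SE 0.33). Both genes were lower in every HFD library. Among lipases, Lip3 had 0.724, 0.356 and 0.741 CPM on HFD, against 0.994, 1.71 and 1.16 CPM on RD (-1.05, SE 0.41, unadjusted p 0.0383). Lip2 had 4.06, 4.45 and 2.56 CPM on HFD, against 7.89, 7.67 and 4.70 CPM on RD (-0.87, SE 0.34, unadjusted p 0.0393). Lip1 had 0.628, 0.445 and 0.135 CPM on HFD, against 2.30, 0.767 and 0.708 CPM on RD (-1.58, SE 0.70), and Lip4 had 47.4, 39.8 and 49.1 CPM on HFD, against 51.1, 57.1 and 53.4 CPM on RD (-0.24, SE 0.17). These 4 lipase genes were lower in each HFD library. CG5966, of the pancreatic lipase family, was higher, at 43.9, 26 and 21.9 CPM on HFD, against 20.9, 18.9 and 10.1 CPM on RD (0.88, SE 0.38, unadjusted p 0.0576). CG10357, of the same family, had 0.676, 6.32 and 0.943 CPM on HFD, against 0.186, 0.0590 and 0.304 CPM on RD, so that its log2 fold change of 3.73 (SE 1.09, unadjusted p 0.0121) rested mainly on HFD 3.

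The insulin and adipokinetic hormone list had 17 genes tested and a median of -0.12, with 1 gene higher and 1 lower at an unadjusted p under 0.05, against 0.472% and 0.943% of all genes. tobi, an alpha-glucosidase-like gene known as a target of brain insulin (3R from 25344761 to 25346921, minus strand), had 10.9, 2.85 and 6.6 CPM on HFD, against 38.6, 27.0 and 17.8 CPM on RD. The diets did not overlap. The difference on the log2 scale was -2.02 (SE 0.53, unadjusted p 0.00701), and -2.55 (SE 0.51) without HFD 2, and its exons overlap rha on the other strand. Ilp2, an insulin-like peptide of the brain, had 210, 98.6 and 198 CPM on HFD, against 236, 224 and 219 CPM on RD, without overlap (-0.42, SE 0.31, unadjusted p 0.211), and was named after its values were seen. InR, the insulin receptor, had 43.7, 133 and 77.0 CPM on HFD, against 34.6, 46 and 48.1 CPM on RD, with HFD 2 inside the RD range (0.98, SE 0.40, unadjusted p 0.0475). InR is a long gene. The fifth of genes with the longest transcripts lay 0.42 above its mean in HFD 3 and 0.06 above it in HFD 4. Whether length bears on the InR values was not tested. Of 22 feeding and gut peptide genes 16 lay above 0 (median 0.19). CCHa2, a nutrient-responsive peptide of fat body and gut, was the 1 gene of that list at an unadjusted p under 0.05, where 0.943% of all genes were lower. It had 71.3, 78.5 and 52.3 CPM on HFD, against 127, 106 and 82.1 CPM on RD (-0.64, SE 0.24, unadjusted p 0.0341). Nplp1, a neuropeptide precursor, had 269, 390 and 239 CPM on HFD, against 230, 224 and 207 CPM on RD (0.44, SE 0.24).

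Detoxification genes lay on both sides of 0. Of 65 cytochrome P450 genes tested, 2 were higher and 1 lower at an unadjusted p under 0.05, against 0.472% and 0.943% of all genes, and the median was -0.10. Without overlap, 4 stood higher (Cyp4e3, Cyp4ac3, Cyp4p2 and Cyp6t3) and 5 lower (Cyp309a1, Cyp6a22, Cyp4s3, Cyp12c1 and Cyp4d8), against 2.76% and 4.08% of all genes. Without HFD 2, 3 were higher and 8 lower of 67 at an unadjusted p under 0.05, against 12.5% and 9.71% of all genes. Cyp4e3 (2L from 9747839 to 9750071, minus strand), of a family that includes fatty acid hydroxylases, had 9.03, 11.1 and 17.9 CPM on HFD, against 4.10, 6.20 and 5.11 CPM on RD. Every HFD library exceeded every RD library. This gave a log2 fold change of 1.30 (SE 0.34, unadjusted p 0.00717), and it lay between 0.83 and 1.68 over the alternatives. Cyp4ac3 had 12.5, 26.4 and 18.3 CPM on HFD, against 10.3, 11.0 and 10.8 CPM on RD (0.83, SE 0.31, unadjusted p 0.0322). Cyp309a1 had 1.59, 0.0889 and 0.876 CPM on HFD, against 5.09, 3.66 and 2.48 CPM on RD (-2.05, SE 0.73, unadjusted p 0.0275). Neither gene overlapped between diets. Of 31 glutathione transferase genes, 24 lay below 0 and 6 did not overlap, all 6 lower, against 4.08% of all genes. GstE9 had the smallest p, with 85.6, 42.0 and 57.7 CPM on HFD, against 101, 101 and 91.7 CPM on RD (-0.67, SE 0.27, unadjusted p 0.0465).

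Of the remaining genes with the smallest p, several belong to cuticle and secreted proteins. Cda4, of the chitin deacetylase family (X from 22583634 to 22632710, minus strand), had 1.35, 1.6 and 1.15 CPM on HFD, against 3.35, 3.25 and 4.15 CPM on RD (-1.39, SE 0.28, unadjusted p 0.00187). Cpr100A, a cuticle protein, had 6.13, 4.0 and 3.50 CPM on HFD, against 12, 13 and 9.86 CPM on RD (-1.35, SE 0.30, unadjusted p 0.00322). Obp56a, an odorant-binding protein, had 8.11, 3.38 and 5.19 CPM on HFD, against 13.9, 17.6 and 12.9 CPM on RD (-1.40, SE 0.36, unadjusted p 0.00676). All 3 were lower in each HFD library than in any RD library, HFD 2 included. Of 24 cuticle genes of the Cpr family tested, 18 lay below 0 (median -0.26), and Cpr60D, Cpr62Bb and Cpr76Bc also lay lower without overlap, against 4.08% of all genes. Cpr76Bc had 9.51, 2.40 and 8.83 CPM on HFD, against 11.9, 10.9 and 14.4 CPM on RD (-0.83, SE 0.50). The 29 odorant-binding protein genes tested had 11 above and 18 below 0, and the 10 UDP-glycosyltransferase and 11 circadian clock genes had medians of 0.01 and -0.00, with 0 members of either at an unadjusted p under 0.05. Amylase and maltase genes had 7 of 8 below 0 (median -0.31), and 24 of 31 small nucleolar RNA genes, a list added after its values were seen, lay above 0 with a median of 0.26 that was -0.24 without HFD 3. CG6293, whose exons overlap Nuak on the other strand, had 41.2, 27.9 and 28.5 CPM on HFD, against 59.0, 72.5 and 50.8 CPM on RD (-0.90, SE 0.24, unadjusted p 0.00806). CG11391 (Acsx2, of the acyl-CoA synthetase family) was higher, with 2.08, 8.27 and 3.30 CPM on HFD, against 0.373, 0.295 and 1.21 CPM on RD (2.80, SE 0.75, unadjusted p 0.00776).

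Genes of the antenna gave the 3 smallest p-values of the comparison, and they were present in all 3 HFD libraries. Obp83a and Obp83b, neighbouring odorant-binding protein genes of the antenna (3R from 5972155 to 5975245 and from 5976177 to 5976817, both minus strand), Os-C and a10, which encode antennal secreted proteins, and a5, a further antennal protein gene, were put together as a set of 5 after their values were seen. Obp83a had 6.08, 12.3 and 7.28 CPM on HFD, against 0.994, 0.708 and 0.556 CPM on RD, for a log2 fold change of 3.50 (SE 0.42, unadjusted p 8.71e-05, adjusted p 0.809 by edgeR). Obp83b had 5.80, 19.9 and 8.35 CPM on HFD, against 1.55, 1.42 and 1.16 CPM on RD (3.03, SE 0.53, unadjusted p 0.000809). The HFD libraries stood clear of RD in both genes, and HFD 3 was the highest. Os-C had 4.06, 12.2 and 2.83 CPM on HFD, against 0.124, 0.0590 and 0 CPM on RD (6.6, SE 0.97, unadjusted p 0.000313), and its exons overlap Sfp84E on the other strand. a10 had 2.51, 4.36 and 2.69 CPM on HFD, against 0.373, 0.177 and 0.405 CPM on RD (3.28, SE 0.44, unadjusted p 0.000173). a5 had 0.724, 9.16 and 1.35 CPM on HFD and no read on RD, which makes it at least 65.9-fold higher against a floor of 3 counts over the RD group, and at least 18.2-fold higher without HFD 3. DESeq2 gave adjusted p-values of 2.52e-09, 0.000114, 2.44e-06, 2.08e-05 and 0.000257 to these genes in the order named, so that they are 5 of its 9 calls, beside TotA, hgo, fit and CG3999.

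The antennal RNA was not even across antennal genes. Of 11 antennal binding and accessory protein genes tested, 8 lay above 0 and 6 were higher without overlap, against 2.76% of all genes, and the median was 2.02 (0.69 without HFD 3). Obp69a had 4.88, 29.9 and 5.79 CPM on HFD, against 1.93, 4.66 and 3.34 CPM on RD (2.02, SE 0.78, unadjusted p 0.0384). lush, which binds a male pheromone, had 3.96, 13.3 and 5.93 CPM on HFD, against 2.05, 4.72 and 4.60 CPM on RD, with overlap (1.01, SE 0.54). The odorant receptors tested, made by the sensory neurons, overlapped between diets. Orco, the coreceptor that most odorant receptors need, had 7.87, 6.58 and 8.76 CPM on HFD, against 8.14, 5.19 and 9.36 CPM on RD (0.03, SE 0.30, unadjusted p 0.914), and its sign turned with total counts only (-0.10). The 38 antennal receptor genes summed to 59.4, 101 and 81.5 CPM on HFD and 53.3, 75.3 and 74.2 CPM on RD. Ir76a, whose exons overlap CG14102 on the other strand, was the largest part, at 26.4, 40.8 and 36.6 CPM on HFD and 23.6, 36.5 and 34.2 CPM on RD. As CPM of total counts the sum was 55.1 to 83.8 in male heads and 34.3 to 43.5 in male bodies, which carry no antennae. How much of it is antennal RNA was not tested. Of 13 receptor genes tested 10 lay above 0 with a median of 0.14, which was -0.03 with total counts only. Without HFD 2 the median was 0.44, and 5 of 14 were higher and 0 lower at an unadjusted p under 0.05, against 12.5% and 9.71% of all genes; Or13a, Or22a, Or22b and Ir40a were those of the 5 also tested with all libraries. Obp19d, the most abundant gene of the binding protein list, had 691, 143 and 151 CPM on HFD, against 1228, 226 and 290 CPM on RD, with the order of the ribosomal protein sums within each diet.

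The same 5 antennal genes were seen elsewhere in the series, on both diets. As CPM of total counts they summed to 19.7, 46.3 and 23.1 in HFD 2, 3 and 4 of the male heads, against 3.15, 2.47 and 2.31 in RD 1, 2 and 3. In female heads they summed to 9.68 in HFD 3 and 20.8 in HFD 4, against 1.61 in HFD 2 and 1.36 to 1.99 in the 3 RD libraries. In bodies, which carry no antennae, they reached 13.5 in HFD 3 and 11.0 in RD 2 of the males and 8.41 in HFD 4 and 9.19 in RD 3 of the females, with the other 8 body libraries at 0 to 0.871. In bodies the higher libraries were found on both diets. By the study's methods, a later batch of heads was collected with the antennae removed and kept apart. RT-PCR of antenna-specific candidate genes then gave no statistically significant difference between diets. Their expression was reported as far higher in the antenna than in the head. In the libraries compared here the part of antennal tissue in these differences was not tested.

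Testis genes were higher on HFD mainly in HFD 4. Leaving out bol, whose level (285, 998 and 524 CPM on HFD, against 216, 421 and 364 CPM on RD) went with the neuron markers, 34 testis markers summed to 37.8, 52.4 and 214 CPM on HFD and 33.1, 39.4 and 42.1 CPM on RD. HFD 4 stood apart. Of 20 tested, bol included, 19 lay above 0, 4 had an unadjusted p under 0.05, all higher, and 3 (ocn, fzo and can) were higher without overlap, against 0.472% and 2.76% of all genes, with a median of 1.58 that was 0.43 without HFD 4. ocn, a sperm protein gene, had 1.59, 2.76 and 11.3 CPM on HFD, against 1.37, 1.24 and 0.860 CPM on RD (2.17, SE 0.76, unadjusted p 0.026). fzo, which fuses the mitochondria of spermatids, had 0.676, 0.800 and 2.22 CPM on HFD, against 0.311, 0.295 and 0.405 CPM on RD (1.84, SE 0.57, unadjusted p 0.0157). dj, a sperm tail gene, had 0.869, 1.96 and 11.9 CPM on HFD, against 0.559, 0.826 and 1.01 CPM on RD, and S-Lap4, a sperm leucyl aminopeptidase gene, had 1.98, 2.67 and 23.6 CPM on HFD, against 1.12, 1.71 and 2.58 CPM on RD. loopin-1 had 1.45, 3.29 and 16.4 CPM on HFD, against 1.49, 1.65 and 1.82 CPM on RD, and djl had 0.338, 1.6 and 5.05 CPM on HFD, against 0.435, 0.649 and 0.556 CPM on RD. In each of these HFD 4 was highest, HFD 3 next and HFD 2 nearest to RD. can, a regulator of spermatocyte transcription, had 1.55, 3.47 and 2.43 CPM on HFD, against 1.30, 1.36 and 1.47 CPM on RD (0.83, SE 0.36), and gdl was the member below 0, at 1.30, 0.534 and 1.15 CPM on HFD and 1.49, 1.53 and 1.32 CPM on RD; both were named after their values were seen.

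Other genes that ranked high showed that same order. CG31468 had 0.869, 1.16 and 5.79 CPM on HFD, against 0.435, 0.413 and 0.455 CPM on RD (2.56, SE 0.81, unadjusted p 0.0167). dtr, the counterpart of an assembly factor of ciliary dynein arms, had 0.773, 2.05 and 2.83 CPM on HFD, against 0.373, 0.590 and 0.607 CPM on RD (1.81, SE 0.54, unadjusted p 0.0136). CG32371 had 0.821, 2.58 and 6.33 CPM on HFD, against 0.745, 0.708 and 0.759 CPM on RD. All 3 were highest in HFD 4, the library of the high testis sum. Among the 10 genes with the smallest p in the higher direction without HFD 2, the non-coding genes CR32690 (0.531, 2.13 and 4.78 CPM on HFD, against 0.373, 0.413 and 0.202 CPM on RD) and CR43157 (0.435, 1.51 and 1.95 CPM on HFD, against 0.311, 0.177 and 0.304 CPM on RD) and CG17177 (0.241, 0.978 and 1.89 CPM on HFD, against 0.186, 0.295 and 0.152 CPM on RD) did not pass the filter on low counts with all libraries. The accessory gland list did not separate the diets (2901, 269 and 1474 CPM on HFD and 2523, 1278 and 1789 CPM on RD). Most of that sum was PebIII, at 2876, 237 and 1443 CPM on HFD and 2496, 1249 and 1759 CPM on RD. The midgut list was at 34.0, 17.1 and 22.3 CPM on HFD and 70.1, 24.8 and 26.2 CPM on RD, with 5 of its 36 genes at 0 in all 6 libraries. RD 1 stood apart in it. Jon25Biii had 4, 1 and 6 reads on HFD and 53, 1 and 0 on RD, and Amy-p had 35, 1 and 0 reads on HFD and 101, 2 and 5 on RD. PebIII, Jon25Biii and Amy-p were named after their values were seen. alphaTry, a gut trypsin named in the same way, was the member of the midgut list without overlap, at 0.193, 0.534 and 0.472 CPM on HFD and 1.74, 0.649 and 1.06 CPM on RD (-1.57, SE 0.55, unadjusted p 0.0264).

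Neuron markers were higher on HFD in every member without passing a test. All 14 lay above 0, with a median of 0.66, 0 had an unadjusted p under 0.05 and 1 was higher without overlap, against 2.76% of all genes. elav, the neuronal RNA-binding protein, had 205, 689 and 351 CPM on HFD, against 147, 305 and 272 CPM on RD (0.78, SE 0.49). Snap25, of the synaptic fusion machinery, had 720, 2453 and 1244 CPM on HFD, against 532, 1018 and 881 CPM on RD (0.86, SE 0.49). In both, HFD 2 lay inside the RD range. Cha, the choline acetyltransferase, was the member without overlap, at 155, 236 and 162 CPM on HFD and 154, 140 and 142 CPM on RD (0.34, SE 0.22), with HFD 2 just above RD 1. The median was 0.06 with the first principal component as a covariate. Without HFD 2 it was 0.94 and 9 of 14 had an unadjusted p under 0.05, against 12.5% of all genes.

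**Figure D4:**
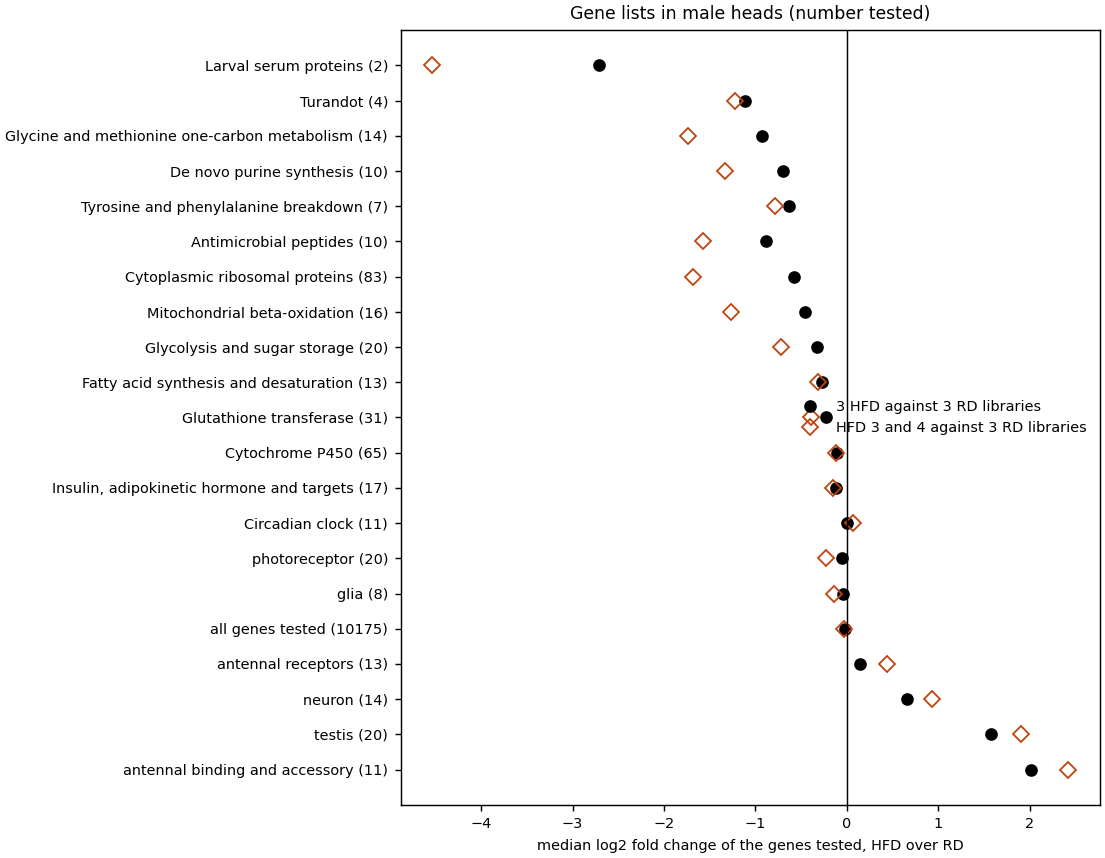
Median log2 fold change (HFD over RD) of the tested genes of 21 lists, with the number tested in brackets; filled circles are the fit of 3 HFD and 3 RD libraries and open diamonds the fit without HFD 2. Turandot and tyrosine breakdown genes have like medians in both fits (-1.11 and -1.22, and -0.63 and -0.78), whereas the ribosomal protein median is -0.58 with HFD 2 and -1.68 without it.

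Further genes had small p-values when HFD 2 was left out. CG8147 had 54.0, 4.18 and 7.68 CPM on HFD, against 50.6, 44.7 and 32.3 CPM on RD, with a log2 fold change of -0.94 (SE 0.89) in all libraries and -2.84 (SE 0.38, unadjusted p 0.000205) without HFD 2. CG31075 had 48.5, 5.69 and 13.9 CPM on HFD, against 69.0, 58.4 and 47.1 CPM on RD (-1.35, SE 0.71, and -2.57, SE 0.43). CG10516 had 30.5, 7.83 and 15.4 CPM on HFD, against 49.8, 47.5 and 40.9 CPM on RD (-1.36, SE 0.47, and -1.99, SE 0.34). HFD 2 was the highest HFD library in each. CG34166 had 11.3, 2.13 and 2.49 CPM on HFD, against 39.1, 19.2 and 14.6 CPM on RD (-2.18, SE 0.74, and -3.39, SE 0.53). Sodh-1, a sorbitol dehydrogenase gene chosen after its values were seen, had 58.9, 4.45 and 8.29 CPM on HFD, against 174, 56.1 and 43.0 CPM on RD (-1.92, SE 1.04, and -3.83, SE 0.76). Jhedup, a juvenile hormone esterase-like gene chosen in the same way, was higher, with 3.86, 32.6 and 6.87 CPM on HFD, against 0.435, 0.295 and 3.74 CPM on RD (3.24, SE 1.21, unadjusted p 0.0332).

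Male heads were then set beside female heads and male bodies on the same diets, each tissue and sex having 3 libraries per diet of its own. By the study's methods the bodies were picked from the flies whose heads were taken, so male head and body libraries can share flies, and the sources used here do not say that a replicate number marks such a pool. The diet effect did not differ between male and female heads for any gene at an adjusted p under 0.05 (0 of 10527 genes, 0%, smallest adjusted p 0.907, by the interaction term in edgeR), with 131 (1.24%) at an unadjusted p under 0.05 and 0 by DESeq2. Between male heads and male bodies it was 0 of 13308 (0%, smallest adjusted p 0.915), with 418 (3.14%) at an unadjusted p under 0.05 and 0 by DESeq2. Without HFD 2 of the male heads the unadjusted counts were 2783 and 2479, with 0 past the adjusted threshold. Without HFD 4 the tissue count was 213, and without RD 1 it was 242. With heads and bodies of 1 diet and number taken as a pool and blocked, a choice made after seeing the data, it was 267, with 0 past the adjusted threshold.

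Several genes lay on the same side in all 3. For hgo the log2 fold change was -1.02 (SE 0.19) in the male heads, beside -0.80 (SE 0.17) in the heads of females and -0.70 (SE 0.14) in the male bodies. Its level was 15.9, 13.4 and 19.9 CPM in female heads on HFD, against 26.4, 24.1 and 34.8 CPM on RD, and 22.8, 23.2 and 24.7 CPM in male bodies on HFD, against 38.2, 43.5 and 33.3 CPM on RD. The diets did not overlap in any of the 3. CG11796 had -1.40 (SE 0.37), -0.69 (SE 0.30) and -0.81 (SE 0.13) in the same order. Cyp4e3 was higher in male heads by 1.30 (SE 0.34), in heads of females by 2.06 (SE 0.39) and in male bodies by 1.54 (SE 0.25), again without overlap in any of the 3, with 94.9, 49.2 and 146 CPM in female heads on HFD, against 20.6, 16.2 and 32.6 CPM on RD. Lsp2 was lower by 3.48 (SE 1.08), 1.15 (SE 0.25) and 2.32 (SE 0.50) on the log2 scale, and CG6188 by 2.33 (SE 0.84), 1.02 (SE 0.37) and 1.43 (SE 0.38). None of these passed the adjusted threshold in female heads or male bodies, where the smallest adjusted p among them was 0.529, for CG11796 and Cyp4e3 in male bodies.

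Other genes stood apart in male heads at the unadjusted level only. TotA was lower in male heads (-1.31, SE 0.20) and had 593, 313 and 332 CPM in female heads on HFD, against 389, 311 and 437 CPM on RD (0.12, SE 0.24), and the interaction had an unadjusted p of 0.0018. In male bodies TotA had 39.7, 59.0 and 47.3 CPM on HFD, against 87.5, 172 and 66.8 CPM on RD (-1.16, SE 0.36). TotA was thus lower in both male tissues, which can share flies. Cda4 had -1.39 (SE 0.28) in male heads, with 0.00 (SE 0.26) in those of females and 0.12 (SE 0.27) in male bodies. Its unadjusted interaction p-values were 0.0035 for sex and 0.00595 for tissue. The tissue p was 0.0209 in the edgeR fit with heads and bodies blocked as pools. CG3999 had -2.20 (SE 0.50), -0.24 (SE 0.18) and -2.15 (SE 0.56), with an unadjusted p of 0.00397 for the difference between the sexes. fit was a low gene in male heads (at most 8.07 CPM) and a high one in female heads (71.6 to 242 CPM on HFD and 120 to 234 CPM on RD), and its effect was -2.92 (SE 0.58) in male and -0.23 (SE 0.43) in female heads, with an interaction p of 0.00927. to was higher by 1.49 (SE 0.38) in male heads and 0.69 (SE 0.18) in female heads and had 0.01 (SE 0.21) in male bodies, with an unadjusted p of 0.00921 for the difference between the male tissues. With the block by pools that edgeR p was 0.0115. All these interaction terms had an adjusted p of at least 0.907, so none was shown to differ.

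**Figure D5:**
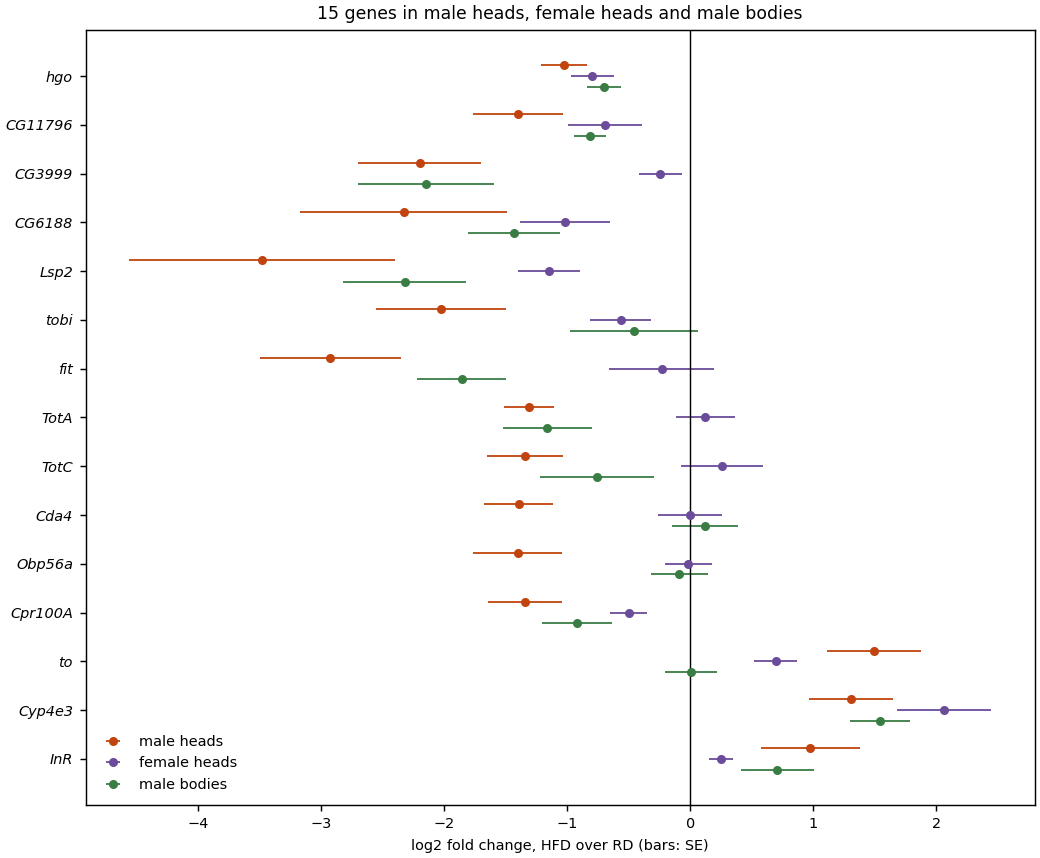
Log2 fold change (HFD over RD) with its SE for 15 genes in male heads, female heads and male bodies, each from 3 HFD and 3 RD libraries in a fit of its own. hgo, CG11796 and Cyp4e3 lie on the same side of 0 in all 3; TotA lies at -1.31 in male heads, at 0.12 in those of females and at -1.16 in male bodies, and no interaction passed the adjusted threshold.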

How the data were processed

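The authors prepared the 24 libraries by poly(A) selection with a stranded TruSeq kit, read both ends of the fragments on a HiSeq2500 and placed the reads with TopHat on the fly index of Illumina's iGenome package. The submitters' processing notes name dm6 and featureCounts without versions, and the study's methods name a mouse annotation; the strand setting and the treatment of multimapping reads are not given in the sources used here. The tables that the authors deposited hold raw counts of reads for each of 16727 genes and a gene length in bases, which is a per-gene value set by the authors' annotation and was used only for TPM filters and length classes.

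Male head libraries were compared with edgeR 4.0.16 (glmQLFit and glmQLFTest) under R 4.3.3, on the genes that filterByExpr kept (minimum count 10, minimum total 15), with TMM scaling and Benjamini-Hochberg adjustment over all genes tested (threshold 0.05). A positive log2 fold change is higher on HFD, and its SE is its size over the square root of F. Because permuting 3 libraries and 3 gives an exact two-sided p of 0.1 at best, no single gene was tested in that way. Interactions with sex (12 head libraries) and tissue (12 male libraries) were terms of the same kind of fit. Alternatives were DESeq2 1.42.0, limma 3.58.1 (voom, with and without sample quality weights), other scalings, filters, sample sets, a replicate block and each library left out. The tests were checked on simulated data with 200 changed genes. Those counts were drawn independently for each gene, so the check does not cover the gradient shared by genes across the real libraries. The gene lists, the members and the rule for named genes were chosen with earlier results of these data known. The rule names the genes called by edgeR or DESeq2, the 12 genes without overlap with the smallest p in each direction, up to 6 members of each list described, the 10 genes with the smallest p in each direction without HFD 2, and the 5 most abundant genes in libraries that stand apart; other genes named (Sodh-1, Jhedup, and list members beyond those 6) were chosen after their values were seen. Of the gene symbols, 16508 matched a gene of the BDGP6 annotation, the assembly of dm6, from which positions and overlaps come, and 219 did not. Counting error alone is covered by the floor of 3 counts. Figures were drawn with matplotlib 3.10.9.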

Additional observations from a re-analysis of the deposited data

How the results depend on the processing

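Of 98 tested genes given with values or named by the rule, PebIII, Rfabg and Ir76a not counted, 95 kept their sign in every fit. Many were named for a small p or for diets without overlap in these same libraries. Their stable sign therefore follows in part from that choice. Of 42 lists 17 kept the sign of their median. GstZ1 (0.09) turned with total counts only (-0.10), the ribosomal protein sum as a covariate (-0.072), the first principal component as a covariate (-0.21) and DESeq2 on HFD 2 and 4 (-0.18), and ran from -0.18 to 0.40 when a library was left out. Obp19d (-0.83) turned with that component (0.16) and a replicate block (0.29), and ran from -1.99 to 0.35 with a library left out. Orco (0.03) turned with total counts only (-0.10) and with every gene of at least 1 count (-0.018), and ran from -0.18 to 0.21.

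The count at an adjusted p under 0.05 was 0 in edgeR and 9 with DESeq2, 17 with voom and quality weights, 166 with DESeq2 without HFD 2 and 10 with DESeq2 without HFD 3. At an unadjusted p under 0.05 it was 144 in edgeR, against 219 with DESeq2, 2537 with quality weights, 312 with every gene of at least 1 count, 1557 with all 12 male libraries, 974 with all 12 head libraries, 2823 with DESeq2 without HFD 2, 254 with the first principal component and 689 with HFD 3 and 4 against RD 2 and 3, and ran from 50 to 2296 when a library was left out. The covariates, the fit of HFD 3 and 4 against RD 2 and 3 and DESeq2 without HFD 3 were chosen after seeing the data. The cause of these moves was not tested.

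Genes higher on HFD were 33.3% of the 144, against 47.0% with DESeq2, 16.3% with voom, 52.6% with quality weights, 16.7% with total counts only, 63.1% with every gene of at least 1 count, 53.1% with a mean TPM filter, 90.9% with all 12 male and 71.7% with all 12 head libraries. Total counts only moved the median of all genes to -0.16 and the 12 male libraries to 0.19, from -0.02.

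The diets share only replicate numbers 2 and 3, whose deviations correlated at -0.776 and 0.340, so the numbers were not taken as a pairing. Male heads and bodies of the same number correlated at 0.714, 0.551 and 0.228 on HFD and at -0.424, -0.232 and -0.037 on RD, and a replicate block by such pools moved the tissue interaction count at an unadjusted p under 0.05 to 267, against 418. In male heads a replicate block called 2 genes (a5 and Os-C) at the adjusted and 24 at the unadjusted threshold. The 3 libraries a diet and the spread along the first component limit what could be detected.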
